A study of Caenorhabditis elegans with 2 samples.

Results

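The genes of translation factors and of tRNA synthetases were examined for binding of NHR-11, a member of the nuclear hormone receptor family, in larvae of the nematode Caenorhabditis elegans. Members were all protein-coding genes whose symbol in the WBcel235 annotation begins with eif-, eef- or iff- and a digit, or consists of 1 letter, ars- and a digit. This gave 65 genes of 19973, of which 33 were translation factor genes and 32 were tRNA synthetase genes. A gene was counted as bound when a reproducible region had its summit in a window that starts 1000 bases before the gene's annotated 5′ end and stops 500 bases after it. By that rule 10 of the 65 members were bound (15.4%), beside 659 of all 19973 protein-coding genes (3.30%). The 10 were 5 of the 6 elongation factor genes, 1 of the 2 eIF5A genes, 2 of the 11 eIF3 genes and 2 of the 32 synthetase genes. The groups follow the symbols eef-, iff-, eif-3 and ars-, so genes of these roles under other symbols are not in them.

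Protein synthesis begins when initiation factors bring the initiator tRNA, the mRNA and the small ribosomal subunit together. Elongation factors then deliver charged tRNAs to the ribosome and move it along the mRNA, while aminoacyl-tRNA synthetases join each amino acid to its tRNA. These genes are used by nearly every cell, and in growing larvae the demand for their products is high.

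The data came from chromatin immunoprecipitation followed by sequencing (ChIP-seq) on whole L3 larvae, with males and females pooled. There was 1 group of 2 biological replicates, both of strain OP305, which carries unc-119(ed3) III and the integrated transgene wgIs305. The antibody is labelled nhr-11 while the sample description speaks of eGFP-nhr-11, so it is not known which epitope was precipitated, and the labels do not say which promoter drives the transgene. Both replicates therefore share the transgene and the unc-119 mutation, and whole animals do not show in which cells a region was bound.

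The lists used were all on the ce11 build. The reproducible list held 1030 regions kept by a filter on how ranks match between replicates (the irreproducible discovery rate), and these were the strongest 1030 regions of a pooled candidate list. The pooled list and the list of each replicate held 30000 regions each and were meant to include background. Strength is the authors' peak signal value, whose scale is not stated. It was read only as a rank within a list, where rank 1 is the strongest. Signals in the reproducible list ran from 54.9 to 899 with a median of 73.8, while the weakest pooled region had 19.4. Read counts are not part of the lists, so the depth of each replicate is unknown and no error can be attached to a single signal. There was no second condition and no test was made between gene groups. Counts are set beside the same count over all protein-coding genes, which were not matched for expression. No test was made of whether the regions are specific to NHR-11.

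The bound members were counted by their roles in translation. Of 33 translation factor genes 8 were bound (24.2%), and of 32 synthetase genes 2 were (6.25%), against the 3.30% of all genes. Each of the 6 elongation factor genes with an eef- symbol had a region in the pooled list and in both replicate lists. Single lists held a region at 43.2% (pooled), 42.0% (replicate 1) and 42.6% (replicate 2) of all genes. The share of all genes with a region in every list is not given here. Among the 10 genes with symbols beginning eif-2, none was bound, and 8 had a pooled region, which 43.2% of all genes had. With 3.30% of all genes bound, a count of 0 in a group of 10 or fewer is near the background. That group holds the subunits of eIF2, which carries the initiator tRNA, those of its exchange factor eIF2B, and the separate factors eif-2A and eif-2D. None of the remaining 4 genes with eif- symbols (eif-1, eif-1.A, eif-4A3 and eif-6) was bound, and 3 of these had a pooled region. Of the 32 synthetase genes, 18 had no region in any list, a count for which the share of all genes is not given here. By the pooled list alone 13 of the 32 had a region (40.6%), near the 43.2% of all genes.

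**Figure D1:**
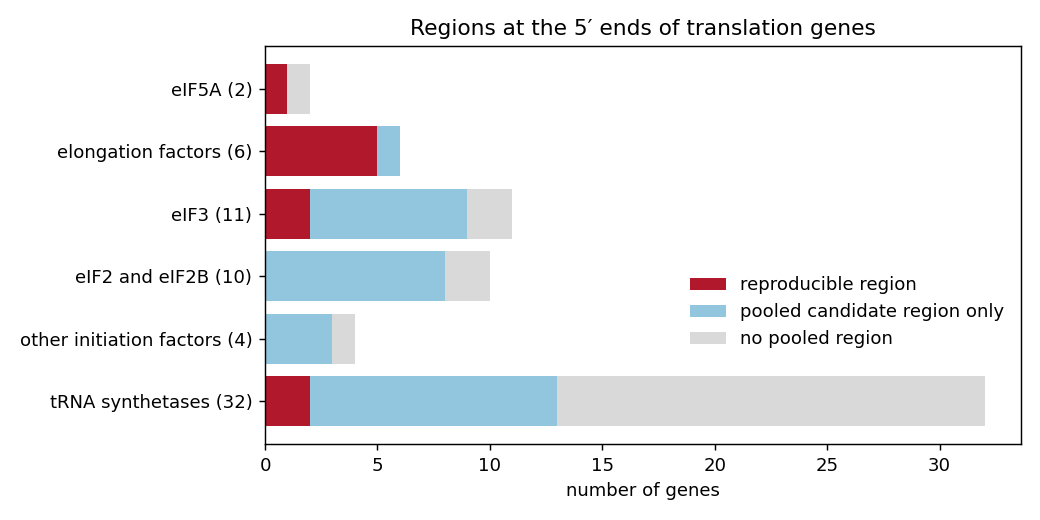
Genes of each role group by the strongest class of region at their 5′ end. Each bar is 1 role group and its parts count genes. Groups follow gene symbols. The elongation factor genes (eef-) have 5 of 6 with a reproducible region, whereas 2 of 32 synthetase genes do.

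The strongest region belonged to iff-2, which encodes eIF5A, a factor that helps the ribosome through peptide bonds that form slowly. Its reproducible region had a signal of 372 and rank 8 of 1030. In replicate 1 the signal was 181 (rank 9), and in replicate 2 it was 185 (rank 9). The replicates thus placed it at the same rank. The summit lay 63 bases upstream of the annotated 5′ end of iff-2 (WBGene00002065, II 8559375 to 8561367, minus strand) in intergenic sequence. RefSeq places the 5′ end of iff-2 further downstream, which puts the summit 466 bases upstream of it. The other eIF5A gene, iff-1, had no region in any list, and the nearest pooled summit lay 3940 bases downstream of its 5′ end.

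The elongation factor gene eef-1G (WBGene00008920, V 10965719 to 10967922, plus strand) encodes the gamma subunit of elongation factor 1. Its region had a signal of 153 and rank 88, with 74.8 (rank 98) in replicate 1 and 77.2 (rank 90) in replicate 2. The summit lay 16 bases upstream of the 5′ end.

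The regions of iff-2 and eef-1G are shown because they were the strongest at members and because both carry the word ACGCAG as well as the word AGTTCA within 50 bases of the summit. The sequences are on the strand of each gene, 5′ to 3′, run up to the last base before its annotated 5′ end, and hold the summit. They were read from the RefSeq WBcel235 genome, the same build as ce11. Capitals mark any match, on either strand, to any of 10 words of 6 bases. These were the repeat GAGAGA with the repeat GCGCGC, the E-box word CACGTG, the word AGACGC with the word ACGCAG, the nuclear receptor word AGGTCA with its variant AAGTCA, the word AGTTCA, the GATA-type word TGATAA and the TATA-box word TATAAA.
iff-2 (chrII:8561368-8561500, minus strand): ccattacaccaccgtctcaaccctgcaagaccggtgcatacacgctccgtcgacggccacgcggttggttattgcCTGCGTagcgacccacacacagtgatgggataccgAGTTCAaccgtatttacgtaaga
eef-1G (chrV:10965633-10965718, plus strand): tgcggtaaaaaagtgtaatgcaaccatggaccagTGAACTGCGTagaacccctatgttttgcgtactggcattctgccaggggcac

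In both sequences ACGCAG matches on the opposite strand and is printed as CTGCGT. The word AGTTCA stands on the gene's own strand at iff-2 and on the opposite strand, printed as TGAACT, at eef-1G, where the capitals of both words join because they overlap. ACGCAG was within 50 bases of the summit in 19.2% of reproducible regions at gene starts and in 16.7% of all 1030 regions, so its count at 2 of 10 bound members is near the background. AGTTCA was there in 3.13% and 3.59%, beside 2 of 10 bound members. The 10 words were chosen with earlier results of these data known, and these 2 regions were shown partly because they carry AGTTCA. Its count is therefore a description without a test. The longest word that iff-2 and eef-1G had in common was CTACGCAG, read CTGCGTAG on the other strand. It was found after the sequences were seen and has no test. It occurred within 50 bases of the summit in 8 of the 1030 regions (0.777%), and all 8 were among the 511 regions at gene starts (1.57%). The other 6 regions lay at nhl-2 and tag-340 (rank 43), set-16 and drr-2 (rank 45), lin-54 and rpl-12 (rank 47), hsr-9 and rps-19 (rank 118), vig-1 (rank 212), and rpl-36, rps-14 and ndab-2 (rank 396).

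Elongation factor 1A carries charged tRNA to the ribosome and is encoded by eef-1A.1 and eef-1A.2. Both genes were bound. The region of eef-1A.1 (WBGene00001168, III 6970026 to 6971712, minus strand) had a signal of 136 and rank 124, with 64.1 (rank 149) in replicate 1 and 71.5 (rank 115) in replicate 2. For eef-1A.2 (WBGene00001169, X 7823654 to 7825769, plus strand) the signal was 113 and the rank 198, with 51.0 (rank 253) in replicate 1 and 60.8 (rank 172) in replicate 2. Both regions were among the strongest 1030 of each replicate. Every word of 31 bases in each region occurred once in the genome, so the regions of these paralogous genes can be told apart. The summit lay 370 bases upstream of the 5′ end of eef-1A.1, inside cel-mir-5549, a microRNA gene on the same strand. That summit was nearer to the start of rfc-4, on the other side, at 171 bases upstream. At eef-1A.2 the summit lay 419 bases upstream of the 5′ end and no other gene start shared the region.

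The sequences of eef-1A.1 and eef-1A.2 span 70 bases on each side of the summit. They are shown because these paralogs were the members with GAGAGA within 50 bases of the summit, a word present in 28.6% of all 1030 regions. Capitals mark the same 10 words on either strand.
eef-1A.1 (chrIII:6972012-6972152, minus strand): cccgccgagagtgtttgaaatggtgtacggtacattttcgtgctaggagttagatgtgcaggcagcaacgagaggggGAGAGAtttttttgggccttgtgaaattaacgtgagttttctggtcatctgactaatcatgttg
eef-1A.2 (chrX:7823165-7823305, plus strand): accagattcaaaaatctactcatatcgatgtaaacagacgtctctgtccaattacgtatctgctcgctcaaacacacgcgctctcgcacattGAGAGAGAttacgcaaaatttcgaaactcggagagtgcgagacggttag

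GAGAGA occurs once in the eef-1A.1 sequence. In the eef-1A.2 sequence it occurs 2 times with overlap. Neither sequence holds another of the 10 words. The share of regions at gene starts with GAGAGA was 26.2%, so 2 of 10 bound members is near the background.

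Elongation factor 2, which moves the ribosome along the mRNA, is encoded by eef-2 (WBGene00001167, I 9163531 to 9166952, plus strand). Its region had a signal of 120.1 and rank 168, with 53.0 (rank 237) in replicate 1 and 67.7 (rank 141) in replicate 2. The summit lay 31 bases upstream of the 5′ end. The beta subunit of elongation factor 1 recharges elongation factor 1A with GTP. Its gene eef-1B.1 (WBGene00018846, III 7972382 to 7973386, minus strand) had a signal of 68.0 and rank 651, with 32.7 (rank 761) in replicate 1 and 39.4 (rank 486) in replicate 2. This summit lay 7 bases downstream of the 5′ end, within the 5′ UTR of eef-1B.1, and was the only one of the 10 downstream of its gene's annotated start. The eef- gene without a reproducible region was eef-1B.2, whose pooled region had a signal of 35.8 and rank 3752. Its replicates differed, with rank 14276 in replicate 1 (signal 14.6) and rank 2962 in replicate 2 (signal 20.0).

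Initiation factor 3 is a large complex that holds the small subunit ready for mRNA. Of the 11 genes with symbols beginning eif-3, eif-3.C and eif-3.J were bound. The region of eif-3.C (WBGene00001226, I 9976426 to 9979662, minus strand) had a signal of 62.2 and rank 784, with 39.6 (rank 447) in replicate 1 and 21.6 (rank 2246) in replicate 2. For eif-3.J (WBGene00012738, I 13435489 to 13437963, plus strand) the signal was 61.3 and the rank 803, with 20.5 (rank 3877) in replicate 1 and 35.6 (rank 632) in replicate 2. These were the weakest of the 10 bound members and the ones whose replicates differed most in rank, in opposite directions. Each was outside the strongest 1030 regions of 1 replicate, while the other 8 were within the strongest 1030 of both. The summit at eif-3.C lay 273 bases upstream of the 5′ end. At eif-3.J it lay 899 bases upstream, in the 3′ UTR of the neighbouring gene slc-25A46. Of the 11 genes, the 9 with a pooled region had pooled signals from 22.3 to 62.2.

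The bound synthetase genes were kars-1 and mars-1, which charge tRNAs with lysine and methionine. The region of kars-1 (WBGene00002238, II 7070183 to 7072415, minus strand) had a signal of 127 and rank 148, with 67.8 (rank 133) in replicate 1 and 64.1 (rank 156) in replicate 2. For mars-1 (WBGene00003415, IV 11631941 to 11635487, minus strand) the signal was 67.1 and the rank 670, with 32.8 (rank 749) in replicate 1 and 33.9 (rank 700) in replicate 2. In both replicates kars-1 was well ahead of mars-1. The summits lay 325 bases upstream of the 5′ end of kars-1 and 285 bases upstream of that of mars-1, both in intergenic sequence.

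The summit sequences of the synthetase genes are shown for comparison with those of iff-2 and eef-1G. They span 70 bases on each side of the summit, with the same 10 words in capitals.
kars-1 (chrII:7072670-7072810, minus strand): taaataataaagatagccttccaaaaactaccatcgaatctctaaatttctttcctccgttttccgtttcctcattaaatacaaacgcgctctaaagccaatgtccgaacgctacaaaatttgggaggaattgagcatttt
mars-1 (chrIV:11635702-11635842, minus strand): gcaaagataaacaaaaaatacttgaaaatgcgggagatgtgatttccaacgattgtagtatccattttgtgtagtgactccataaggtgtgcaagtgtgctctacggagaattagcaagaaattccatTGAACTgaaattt

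The kars-1 sequence holds none of the 10 words. The mars-1 sequence holds AGTTCA once, on the opposite strand and printed as TGAACT, more than 50 bases from the summit. With the search widened to 100 bases on each side, AGTTCA was found at 3 members (iff-2, eef-1G and mars-1) and in 7.67% of all 1030 regions. The remaining 7 words of the list, apart from GAGAGA, the word ACGCAG and the word AGTTCA, were found within 50 bases of the summit at 0 of the 10 bound members, and their shares over all 1030 regions ran from 2.62% (AGGTCA) to 13.4% (AGACGC). A match or its lack describes these letters in these windows and says nothing about the factor.

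**Figure D2:**
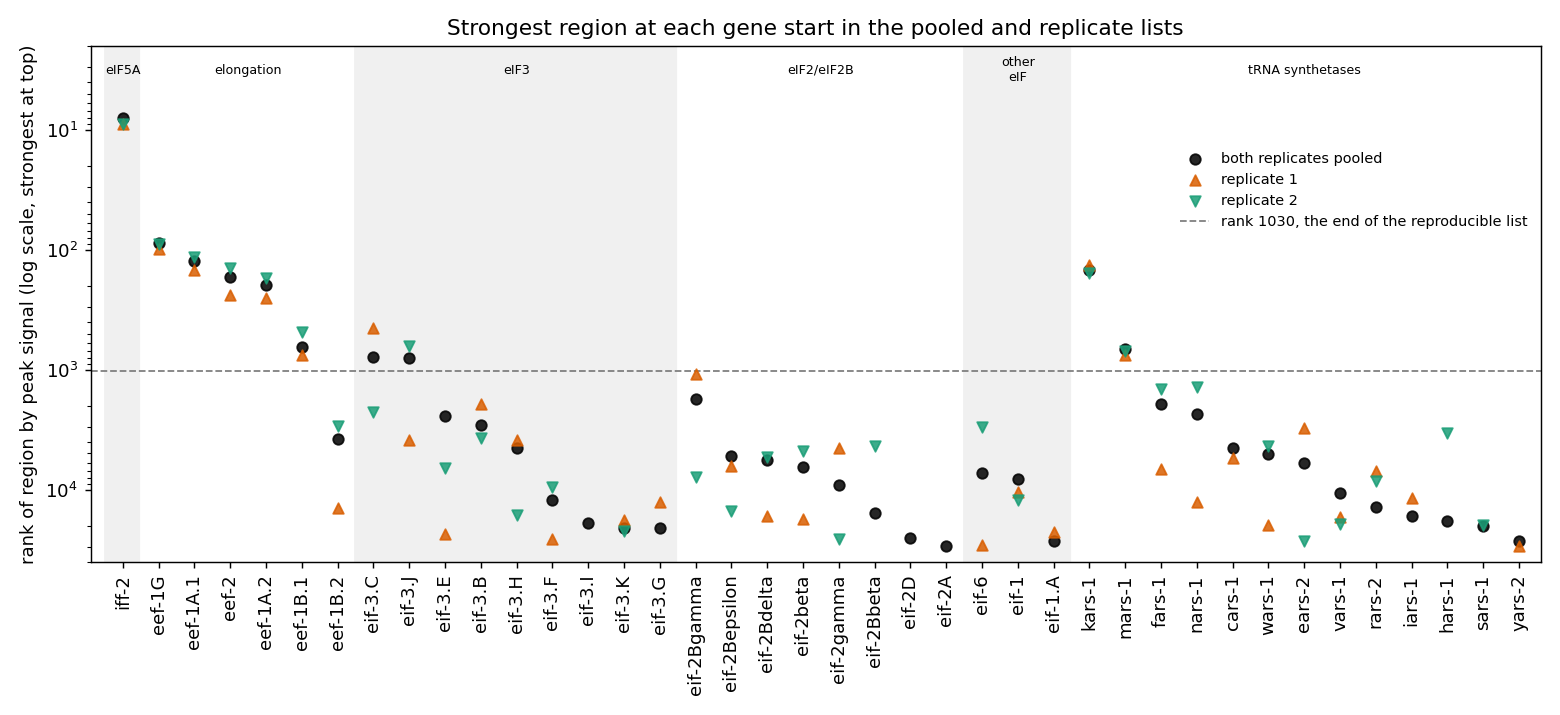
Rank by peak signal of the strongest region at each of the 40 members with a pooled region, on a log axis with the strongest at the top, in the pooled list (circles), replicate 1 (triangles up) and replicate 2 (triangles down). The 10 bound members lie above the dashed line at rank 1030 in the pooled list, and the ranks of eif-3.J run from 632 in replicate 2 to 3877 in replicate 1.

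The 10 bound members had 10 separate regions on 6 chromosomes. The regions called in each replicate overlapped the reproducible region in all 10 cases. Their summits were displaced by at most 55 bases in replicate 1 and 37 bases in replicate 2. Such overlap is largely built into a list filtered on how ranks match between replicates, so it is no separate support. The rank was better in replicate 2 for 7 of the 10, better in replicate 1 for 2 and equal for iff-2. Summits were upstream of the annotated 5′ end for 9 of 10, with a median position of 279 bases upstream. For all bound genes the median was 262 bases upstream, close to that of the members. All 10 summits were upstream of the start codon, a count for which the share of all bound genes is not given here. The median GC share within 50 bases of the summit was 45.5%, from 36.6% at eif-3.J to 60.4% at iff-2. All 1030 regions had a median of 45.5% as well, and the 511 reproducible regions at gene starts had a median of 47.5%. No summit lay within 250 bases of a tRNA gene, and the nearest tRNA gene was 5092 bases away. The same share over all 1030 regions is not given here, so this is not read as a trait of the members.

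Another protein-coding gene start shared the window at 6 of the 10 regions, against 303 of the 659 bound genes in all. The partners were F54C9.14 at iff-2 (872 bases upstream of its start), ctf-4 at eef-1G (164 bases), rfc-4 at eef-1A.1 (171 bases), clsp-1 at eef-2 (234 bases), aco-2 at eef-1B.1 (338 bases) and F58B3.6 at mars-1 (876 bases). The member's 5′ end was the nearest protein-coding gene start to the summit in 9 of 10 cases, the exception being eef-1A.1. This measure ignores gene bodies, and the summit of eif-3.J lay within slc-25A46. With each summit given to its nearest gene start, 2.51% of all genes were bound, beside 3.30% without that rule. The regions of kars-1, eef-1A.2, eif-3.C and eif-3.J served no other gene start. Peak positions alone do not show which gene of a pair, if any, responds to the factor.

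**Figure D3:**
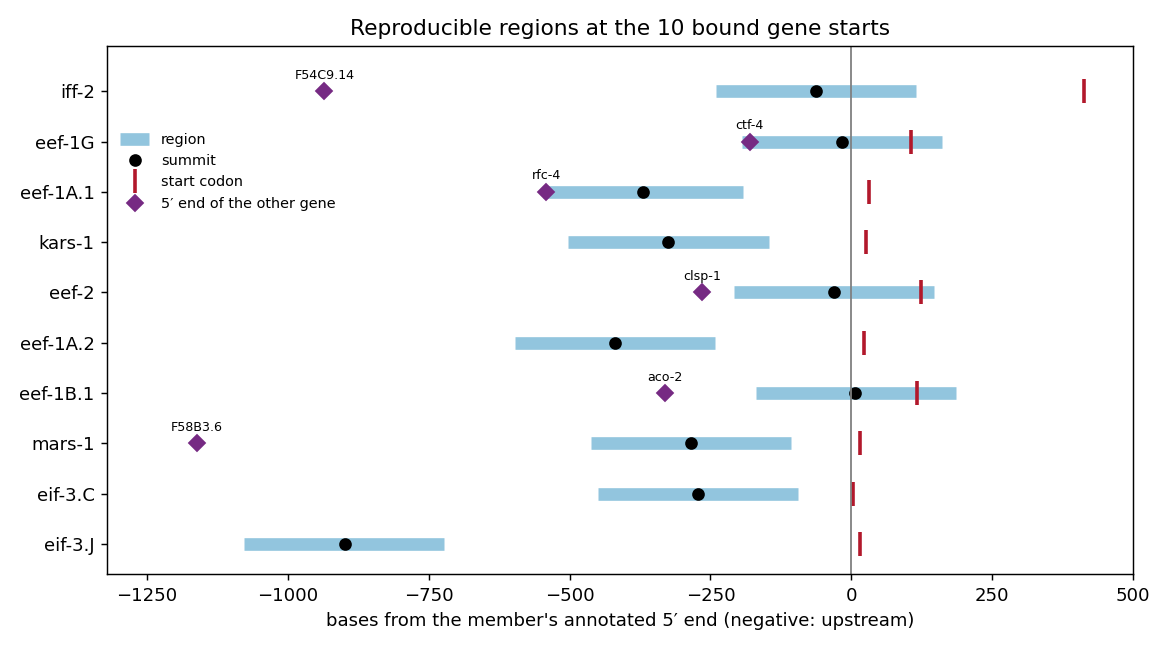
Reproducible regions (bars) and their summits (points) at the 10 bound members, in bases from the member's annotated 5′ end, with start codons as ticks and the start of a second gene as diamonds. Summits range from 899 bases upstream at eif-3.J to 7 bases downstream at eef-1B.1.

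The distance to the next protein-coding gene upstream ran from 179 to 2617 bases for the 10 bound members, with a median of 708.5. For the 55 others it ran from 0 to 4824 bases with a median of 369, so the ranges overlapped and the difference was not tested. The upstream gene lay on the same strand within 500 bases for 1 of the 10 and for 16 of the 55. The share of all genes with such a neighbour is not given here. In C. elegans close genes on 1 strand are often read as an operon from a shared promoter. Whether any of these genes lie in operons, and whether that relates to binding, was not tested.

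Candidate regions reached most translation factor genes and fewer synthetase genes. In the pooled list 40 of 65 members had a region (61.5%), with 27 of 33 factor genes (81.8%) and 13 of 32 synthetase genes (40.6%), beside 43.2% of all genes. Replicate 1 had a region at 35 members (53.8%) beside 42.0% of all genes, and replicate 2 at 33 members (50.8%) beside 42.6%. In each replicate 23 factor genes had a region (69.7%), while synthetase genes had 12 in replicate 1 (37.5%) and 10 in replicate 2 (31.2%). The share of synthetase genes was thus near or under the background of candidate regions in each list. Within the strongest 1030 regions of a single replicate, 9 members were reached in replicate 1, where 3.07% of all genes were, and 9 in replicate 2, where 3.11% were. In each case they were 7 factor genes and 2 synthetase genes.

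The share of genes reached was followed down the pooled list. At rank 5000 it was 39.4% of factor genes, 15.6% of synthetase genes and 10.5% of all genes. At rank 10000 the shares were 57.6%, 21.9% and 18.3%, and at rank 20000 they were 66.7%, 34.4% and 31.5%. Factor genes stayed ahead at each of these ranks, while the share of synthetase genes lay nearer to that of all genes. Among genes with a pooled region the median rank was 5203 for 27 factor genes, 5969 for 13 synthetase genes and 12482 for 8625 genes in all. The order of factor and synthetase genes was not the same in both replicates. In replicate 1 the medians were 4542 for factor genes and 9360 for synthetase genes, and in replicate 2 they were 4311 and 3848. For all genes they were 12512 and 12467. Ribosomal protein genes, the other large part of the translation machinery, were further ahead, with 42 of 81 bound (51.9%) and a median rank of 612 among 69 with a pooled region.

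**Figure D4:**
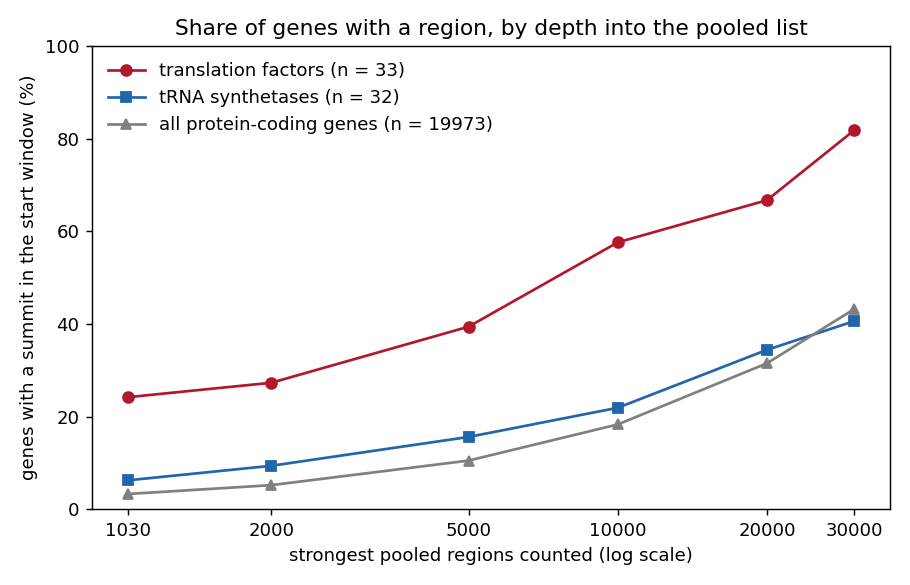
Share of genes (percent) with a pooled region in the window, by the number of strongest pooled regions counted. Lines stand for translation factor genes, synthetase genes and all protein-coding genes. At rank 10000 they are at 57.6%, 21.9% and 18.3%.

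The strongest members without a reproducible region showed how much the replicates could differ below the threshold. The gene eif-2Bgamma, for a subunit of the factor that recharges eIF2 with GTP, had a pooled signal of 44.2 and rank 1762. Its ranks were 1079 in replicate 1 (signal 28.7) and 7871 in replicate 2 (signal 15.3), and its summit lay 935 bases upstream in an intron of C15F1.5. The phenylalanyl-tRNA synthetase gene fars-1 had a pooled signal of 43.1 and rank 1916, with ranks 6774 (17.9) and 1456 (24.8) in replicates 1 and 2. These 2 lay nearest to the threshold, and the replicates placed them in opposite orders. The weakest bound member, eif-3.J, had a signal of 61.3, so no member fell between 44.2 and 61.3. The other 8 of the 10 strongest were nars-1, eif-3.E, eif-3.B, eef-1B.2, cars-1, eif-3.H, wars-1 and eif-2Bepsilon, with pooled signals from 40.5 down to 32.9. Of these, cars-1 had no region in replicate 2. The summit at fars-1 lay nearer to the start of rbm-5, that at nars-1 nearer to nduf-6 and that at eif-3.H nearer to C41D11.3, while eif-3.E shared its window with B0511.17 and eif-2Bepsilon with piga-1.

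Of the 30 members with a pooled region but no reproducible one, 19 had a region in both replicates, 10 with a better rank in replicate 1 and 9 in replicate 2. None of the 30 was within the strongest 1030 of either replicate. The pooled list alone held eif-3.I, eif-2D and eif-2A. Over members with a region in both replicates, Spearman's rho between the replicate ranks was 0.61 (n = 29), and over all such genes it was 0.47 (n = 5186). These are descriptions across genes, which share libraries and are not independent.

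The 25 members without a pooled region were 19 synthetase genes and 6 factor genes. The factor genes were eif-2alpha, eif-2Balpha, eif-3.D, eif-3.L, eif-4A3 and iff-1. The synthetase genes were aars-1, aars-2, dars-1, dars-2, ears-1, fars-2, fars-3, gars-1, iars-2, lars-1, lars-2, nars-2, pars-1, pars-2, qars-1, rars-1, sars-2, tars-1 and yars-1. Of the 25, eif-3.D had a region in replicate 2 alone and lars-2 in replicate 1 alone, and 23 had none in any list. The share of all genes with none in any list is not given here. The nearest pooled summit to these 25 gene starts was between 647 bases (dars-2) and 9487 bases (fars-2) away, with a median of 2741. RefSeq names 4 synthetases as mitochondrial (aars-1, ears-2, pars-2 and rars-2). Some other product names give no compartment, as at lars-2 and sars-2, so these 4 may not be all such genes. None of the 4 was bound (3.30% of all genes were) and 2 had a pooled region (43.2% of all genes did), which is near the background.

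Other genes of translation were taken from a list of 38 symbols, of which 37 were in the annotation. Of these, 9 were bound (24.3%, beside 3.30% of all genes) and 22 had a pooled region (59.5%, beside 43.2%). The strongest was ifet-1, which encodes a partner of the cap-binding protein eIF4E, with a signal of 236 and rank 36. Its summit lay nearer to rps-1, 265 bases upstream of that ribosomal protein gene and 503 bases upstream of ifet-1. Next were drr-2, related to initiation factor eIF4H, with 203 (rank 45), and larp-1, an RNA-binding protein of the La family, with 154 (rank 86). The others were fib-1 (fibrillarin) with 103, clu-1 with 83.7, abcf-2 with 80.6, pab-2 (a poly(A)-binding protein) with 75.7, abcf-3 with 64.0 and atf-4 (a stress-response transcription factor) with 56.3. All except pab-2 shared the window with another gene start. The summit was nearer to another gene start at larp-1 (660 bases upstream, against 329 for wip-1) as well as at ifet-1. The same held at clu-1 (469 against 146 for prp-40) and abcf-2 (895 against 30 for ant-1.1). With each summit given to its nearest gene start, 5 of the 37 were bound, beside 2.51% of all genes. No gene of the cap-binding complex eIF4F was among the 9. The genes ifg-1 (eIF4G) and inf-1 (eIF4A) had no region in any list, while ife-2, for an eIF4E, had a pooled signal of 52.5 at rank 1119, outside the reproducible list.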

How the data were processed

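NHR-11 ChIP-seq was measured in 2 biological replicates of 1 group, numbered as in the labels. Per the deposited descriptions, candidate regions were called on each replicate and on both pooled, each with a control, and a reproducible list was kept by an irreproducible discovery rate threshold. The aligner and caller are not given in the sources used here, and the control was not analysed here. The peak signal assigned by the authors was used to rank regions within a list. The deposited score beside it gave no result. Lists on ce10 were not used.

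Summits on ce11 were joined to gene 5′ ends of Ensembl release 115 (WBcel235, the same build), and each gene took its strongest region from 1000 bases upstream to 500 bases downstream. Sequences came from the RefSeq WBcel235 genome, and RefSeq also gave product names. Words were searched on both strands within 50 bases of the summit. The assignment was tested on simulated summits. Values are counts, ranks and shares, without a test. The text names every bound member, the 10 strongest unbound ones with a pooled region, the genes sharing their windows and other genes of a translation list. Members, lists and words were chosen with earlier results of these data known. Coordinates are 1-based. Sequences on chromosome I or in a UTR were not printed. Python 3.11.15, pandas 2.3.3 and numpy 2.4.6 were used.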

Additional observations from a re-analysis of the deposited data

How the results depend on the processing

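The count of bound members was 10, with 8 factor and 2 synthetase genes, beside 3.30% of all genes. It was 10 with 2000 bases on each side (5.22% of all genes) and 9 with 500 upstream to 250 downstream (2.44%). With the nearest gene start only it was 9 (2.51%), and with any transcript's 5′ end it was 10 (3.56%). The wide window raised the background but not the members. No member was gained under any alternative. The narrower window lost eif-3.J and the nearest-gene rule lost eef-1A.1. RefSeq 5′ ends and start codons, both chosen after seeing the data, kept the same 10 genes (3.29% and 3.21% of all genes). With the stronger 515 reproducible regions alone, 6 members stayed (5 factor genes and 1 synthetase gene, beside 1.81% of all genes), and eef-1B.1, eif-3.C, eif-3.J and mars-1 were lost because fewer regions were counted. Regions among the strongest 1030 of both replicates left 8 members (beside 2.14% of all genes), without eif-3.C and eif-3.J. Taking the strongest 1030 regions of 1 replicate gave 9 members, 7 factor genes and 2 synthetase genes, whichever replicate was left out. eif-3.C was lost without replicate 1 and eif-3.J without replicate 2. The 9 bound genes of the other translation list were recounted with alternatives chosen after seeing the data. They fell to 5 with the nearest gene start only, losing abcf-2, clu-1, ifet-1 and larp-1. The other alternatives for this list gave 6 to 12, and 8 or 9 with 1 replicate left out. The gene pab-2 was lost with RefSeq 5′ ends and with start codons, and atf-4 was lost whichever replicate was left out. In that list ife-2 was gained without replicate 1, and efk-1, ncl-1 and rsks-1 were gained with 2000 bases on each side. With words sought within 100 bases, AGTTCA was at 3 members in place of 2 and TATAAA at 1 in place of 0, while the other 8 words kept their counts. No paired analysis was possible because there was 1 group. Depth is unknown, so weak regions cannot be told from missing ones.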
